A study of Mus musculus with 4 samples.

Results

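Solitary peaks of RNA polymerase II (Pol II) are 1 kb stretches of the mouse genome that carried many Pol II tags while the surrounding sequence carried about the genome's average. They were chosen by measured values. Tags of all 4 libraries were summed in 1 kb bins of chromosomes 1 to 19, and a bin was kept when it held 100 or more tags and was the highest within 10 bins on each side. The tags in bins 2 to 10 away were then summed on each side, and the bin was called solitary when both sums were 60 or less. The rule found 1528 solitary peaks among 4684 such strong peaks (32.6%) and 2462418 bins in all. Of the other strong peaks, 1502 passed the limit of 60 on one side and 1654 on both. The summed tags are therefore a description of how the peaks were chosen. How those tags divided among the 4 libraries, their arrangement inside the peak and everything beyond 10 bins were not used to choose them. The control library gave the most of these tags, 102599 beside 63581 to 74472 in each knockdown library. A high control count could thus help a peak pass the minimum. The closing section gives peaks chosen without that library.

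Chromatin immunoprecipitation and sequencing used an antibody to the N-terminal part of Rpb1, the largest Pol II subunit, labelled as an antibody to total Pol II. All 4 libraries came from V6.5 cells, a mouse embryonic stem cell line of the C57BL/6-129 background, and all had been given the kinase inhibitor flavopiridol at 1 µM for 1 h. The groups were a hairpin against Spt4 (shSpt4), against Spt5 (shSpt5), against NelfE (shNelfE) or a control hairpin (shControl), each present for about 4 days, with 1 library per group. The 3 knockdown libraries carry the same flow cell in their labels and came from cells kept for 2 passages off feeder fibroblasts. The shControl library carries another flow cell and came from cells kept for 1 passage off feeders, so knockdown, flow cell and passage cannot be told apart in a ratio to shControl. Ratios among the knockdown libraries do not carry that split. The files hold no measure of how far each protein was reduced, and the labels do not say whether cells were pooled or cloned. With 1 library per group there is no replicate spread and no test, so each interval below covers counting error only. An interval of a median is over peaks, which are not replicates.

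Pol II at many mammalian genes initiates, moves a short way and halts before it enters the gene body. DSIF, the complex of Spt4 and Spt5, binds the early elongating polymerase, and NELF, of which NelfE is a subunit, acts with DSIF to hold it there. The kinase Cdk9 of P-TEFb phosphorylates DSIF, NELF and Pol II and so allows release, and flavopiridol inhibits it. Held Pol II gives a narrow peak in such data, while elongating Pol II spreads along the gene. The positions here are on the mouse build mm8, and no annotation of that build was used, so no peak was given a gene name, none was placed at a promoter, and no sequence is shown.

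The flanks of these peaks were limited by the rule, so their level describes the choice and is no check of the label. A solitary peak held 100 to 1525 tags in the 4 libraries together, with a median of 175, and 25 peaks held 500 or more. Its flanks of 18 kb in all held a median of 81 tags. That is 4.41 tags per kb over all solitary peaks, against a mean of 4.73 per kb over all bins. The median bin held 3 tags, and windows of 1 Mb that contain no strong peak held 2.70 per kb. The flanks were thus close to the genome's average and above the level of peak-free windows in each library, by 1.71 times in shControl, 1.63 in shNelfE, 1.62 in shSpt5 and 1.58 in shSpt4. "Without flanking signal" means close to average over all solitary peaks, not none, and a single peak could exceed the average. At the mean over all bins each side would hold 42.6 tags, which is below the limit of the rule. The flanks of 18 kb held 90 to 119 tags in 489 solitary peaks, which is above average. They held 73 to 89 tags in 524 peaks and 5 to 72 in 515. The bins directly beside a peak, which the flanks leave out, were denser, with a median of 50 tags on both sides together.

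The thresholds cut through a continuous range. 138 solitary peaks held 100 to 110 tags, and 152 bins with equally low flanks held 90 to 99. Just inside was chr2:4799001-4800000 with 43 tags in shControl, 22 in shSpt4, 14 in shSpt5 and 21 in shNelfE. Just outside was chr2:71254001-71255000 with 38, 19, 13 and 29 tags in the same order. At the flank limit, 231 solitary peaks had a larger flank of 56 to 60 tags and 250 strong peaks had one of 61 to 65. The peak chr1:58368001-58369000 entered with flanks of 51 and 60 tags, and chr1:194446001-194447000 stayed out with flanks of 61 and 50. One pair of neighbouring bins with equal tags was kept as 2 peaks, as the rule has it.

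Tags were counted once per position and strand and expressed per 1000000 tags kept in the library (normalised tags). Kept tags numbered 3170090 for shControl, 2646944 for shSpt4, 2938052 for shNelfE and 3116313 for shSpt5. Repeats of a position, which were dropped, made up 17.7% of the shSpt5 reads and 8.13% to 10.2% in the other libraries.

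Solitary peaks held fewer normalised tags in each knockdown library than in shControl on this scale, most so in shSpt5. Fewer cells with Pol II at a site and less Pol II per cell cannot be told apart in such libraries. The peaks took 3.24% of all kept tags in shControl (exact 95% binomial interval 3.22 to 3.26). The shares were 2.04% for shSpt5 (2.02 to 2.06), 2.44% for shNelfE (2.42 to 2.45) and 2.81% for shSpt4 (2.79 to 2.83). Normalised tags per peak ran from 5.99 to 136 in shControl, with a median of 18.0. They ran from 5.29 to 153 in shSpt4 (median 15.5), from 4.77 to 135 in shNelfE (median 13.6) and from 1.60 to 127 in shSpt5 (median 11.2). The 4 ranges overlapped almost wholly, since peaks differ from each other far more than the libraries do. The raw counts behind one peak are modest, with medians of 35 tags in shSpt5, 40 in shNelfE, 41 in shSpt4 and 57 in shControl, so a single peak can show only large differences.

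**Figure D1:**
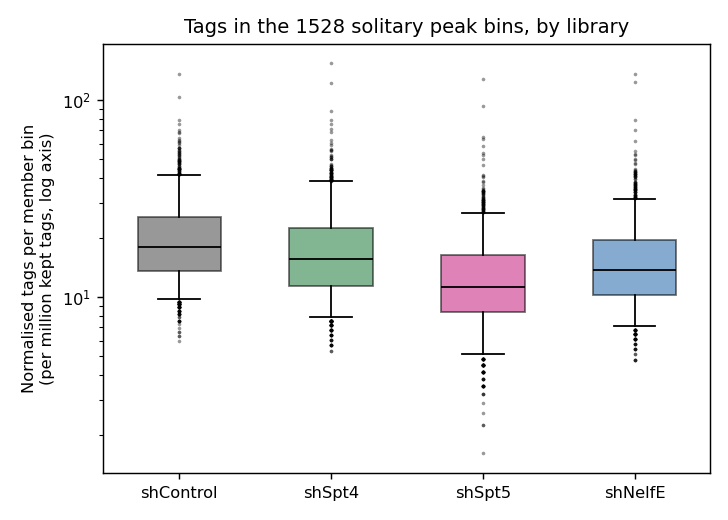
Normalised tags (per 1000000 kept tags, log axis) in the 1528 solitary peaks in each library. Boxes show quartiles and the median, whiskers the 5th and 95th percentiles and points the peaks beyond them. On this scale the medians run from 18.0 in shControl through 15.5 in shSpt4 and 13.6 in shNelfE to 11.2 in shSpt5, with wide overlap, and the gaps to shControl close when all strong peaks are set to a median of 1.

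The shSpt5 library had the lowest ratios. The median ratio of shSpt5 to shControl over solitary peaks was 0.630 (95% interval 0.614 to 0.649), with a standard deviation of 0.54 on the log2 scale, and 91.8% of the peaks lay below 1. The median for shNelfE was 0.742 (0.731 to 0.754), with a standard deviation of 0.35 and 88.2% of peaks below 1. The median for shSpt4 was 0.860 (0.845 to 0.873), with a standard deviation of 0.40 and 71.6% of peaks below 1. Spt4 and Spt5 are partners in one complex, and the ratios of their knockdown libraries lay at the 2 ends of this order.

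These values depend on what the libraries are scaled to, since a ChIP library has no absolute unit. Against shControl, the 991 peak-free windows of 1 Mb held 1.33 times the normalised tags in shSpt5, 1.19 times in shSpt4 and 1.17 times in shNelfE. Scaled to those windows, the medians over solitary peaks were 0.474 for shSpt5, 0.633 for shNelfE and 0.721 for shSpt4. Scaled instead so that the median of all 4684 strong peaks was 1, they turned to 1.06, 1.00 and 1.03. Values near 1 follow from that choice, since the solitary peaks are part of the set. For shSpt4, shSpt5 and shNelfE the shift from the total scale, on the log2 scale, was -0.25, -0.41 and -0.23 under the first choice and 0.27, 0.75 and 0.44 under the second. What does not move with the scale is the position of solitary peaks against all strong peaks. The log2 median of the solitary peaks stood above that of all strong peaks by 0.08 for shSpt5, 0.05 for shSpt4 and 0.01 for shNelfE.

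Peak by peak, a ratio was called lower at 0.5 or less and higher at 2 or more, when its exact 95% binomial interval excluded 1. In shSpt5, 398 solitary peaks were lower than in shControl (26.0%) and 3 were higher. Over all strong peaks 31.7% were lower and 0.320% higher, so the share among solitary peaks was below the background. In shSpt4, 50 were lower (3.27%) and 2 higher, beside 6.32% and 0.427% of all strong peaks. In shNelfE, 77 were lower (5.04%) and none higher, beside 5.34% and 0.0213%, a share close to the background. Under scaling to peak-free windows, 859 were lower for shSpt5, 237 for shNelfE and 148 for shSpt4, with 0 higher in each. The median of all strong peaks on that scale was 0.448 in shSpt5, 0.631 in shNelfE and 0.697 in shSpt4, below that of solitary peaks in each. Under scaling to the median of strong peaks, 15 were lower and 17 higher in shSpt4, 61 and 55 in shSpt5, and 5 and 8 in shNelfE. That scale sets the median of all strong peaks, solitary peaks among them, to 1, so calls on both sides follow from it. The direction of the calls thus rests on the scale chosen. Calls over all strong peaks were counted on the total scale only, so these last counts have no background beside them.

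The 3 flank classes overlapped widely. For shSpt5 the median ratio was 0.630 in solitary peaks, 0.589 in peaks with one flank above the limit and 0.576 with both. For shSpt4 it was 0.860, 0.837 and 0.800. For shNelfE the values of 0.742, 0.743 and 0.733 were within each other's intervals over peaks. The gap between classes was small beside the spread between peaks in each comparison, and with 1 library per group it was not tested.

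**Figure D2:**
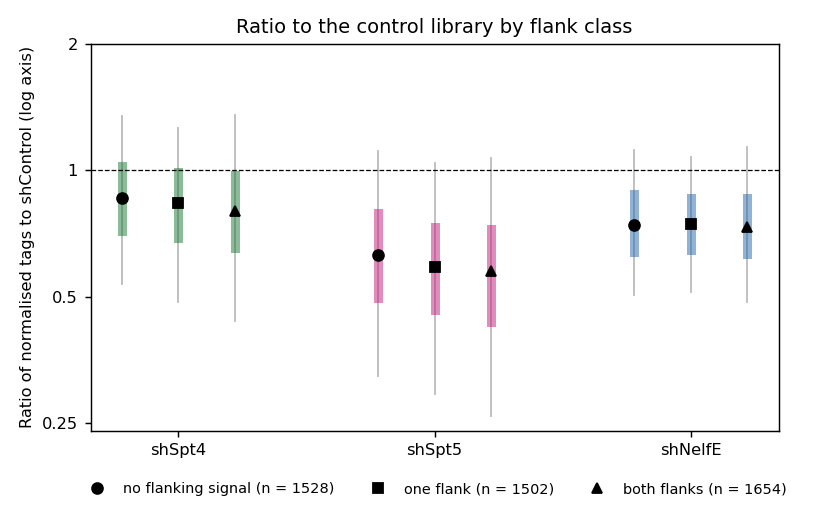
Ratio of normalised tags to shControl (log axis) in solitary peaks (circles), strong peaks with one flank (squares) and with both flanks (triangles) above the limit. Symbols are medians, thick bars quartiles and thin lines the 5th to 95th percentiles over peaks. In shSpt5 the medians are 0.630, 0.589 and 0.576, and in shNelfE they lie between 0.733 and 0.743. Setting the median of all strong peaks to 1 moves them around the dashed line.

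The libraries had a common order at many peaks. shControl was highest at 997 of the 1528 solitary peaks (65.2%), shSpt4 at 375 (24.5%), shNelfE at 93 (6.09%) and shSpt5 at 63 (4.12%). shSpt5 was lowest at 974 (63.7%), shNelfE at 377 (24.7%), shSpt4 at 131 (8.57%) and shControl at 46 (3.01%). At 692 peaks (45.3%) shControl was highest and shSpt5 lowest. All 3 knockdown libraries were above shControl at 46 solitary peaks, beside 72 of the 3156 other strong peaks (2.28%). This order is on the total scale and shares one control library, so it says nothing that the 3 ratios do not.

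The knockdown libraries, which share a flow cell, were also compared with each other. The median ratio of shSpt5 to shSpt4 over solitary peaks was 0.728 (0.712 to 0.746), and 180 peaks were lower (11.8%) and 3 higher in shSpt5. All strong peaks gave 13.9% lower and 0.299% higher. The ratio of shNelfE to shSpt5 was 1.18 (1.15 to 1.20), with 122 peaks higher (7.98%) and 6 lower, beside 11.0% and 0.619% of all strong peaks. The ratio of shNelfE to shSpt4 was 0.871 (0.856 to 0.901), with 34 peaks lower (2.23%) and 6 higher, beside 2.31% and 1.52%. By these medians shSpt5 was the lowest of the 3 on the total scale, at peaks that tags of all 4 libraries had chosen. Scaled to the median of strong peaks, its median against shControl was the highest of the 3, at 1.06 beside 1.03 for shSpt4 and 1.00 for shNelfE. Medians near the set median follow from that scale, which includes the solitary peaks.

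The solitary peaks with most normalised tags differed among themselves, and some departed from the median. The peak at chr12:59958001-59959000 held 103 normalised tags in shControl, 153 in shSpt4, 127 in shSpt5 and 135 in shNelfE, from 328 to 405 raw tags a library. shControl was the lowest library there, and the ratios to it were 1.48 (1.28 to 1.72) for shSpt4, 1.23 (1.06 to 1.43) for shSpt5 and 1.30 (1.12 to 1.51) for shNelfE. At chr4:132156001-132157000 the values were 136, 122, 33.7 and 123, from 430, 323, 105 and 362 raw tags. Here shSpt5 stood alone: its ratio was 0.248 (0.199 to 0.308) to shControl, while shSpt4 gave 0.900 (0.776 to 1.04) and shNelfE 0.908 (0.788 to 1.05). The ratio of shNelfE to shSpt5 at this peak was 3.66 (2.94 to 4.59), between libraries of one flow cell.

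Among the 10 peaks with most tags, 4 had all 3 knockdown libraries above shControl. Besides the chromosome 12 peak above, these were chr13:23629001-23630000, chr11:83087001-83088000 and chr12:55618001-55619000. The chromosome 13 peak held 60.6 normalised tags in shControl, 88.0 in shSpt4, 92.7 in shSpt5 and 70.5 in shNelfE. On chromosome 11, the peak at chr11:83087001-83088000 held 42.3, 75.2, 64.5 and 52.8 in the same order, a ratio of 1.78 (1.42 to 2.23) in shSpt4. Scaled to peak-free windows, the chromosome 12 peak at 59958001 gave ratios of 1.24, 0.925 and 1.11 for shSpt4, shSpt5 and shNelfE, so its direction in shSpt5 turned. On that scale the chromosome 13 peak was at 0.993 in shNelfE, and chr12:55618001-55619000 was at 0.795 in shSpt5 and 0.938 in shNelfE. Of the 4 peaks, chr11:83087001-83088000 alone stayed above 1 in all 3 knockdown libraries there, at 1.49, 1.15 and 1.07. Reads of the second category, which the deposited files list apart, numbered 158 at chr12:59958001-59959000 and 74 at chr12:55618001-55619000. They numbered 328 at the chromosome 13 peak and 0 at chr11:83087001-83088000. Their part in the result was not tested.

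Other peaks of the 10 were near the median or flat. chr1:74439001-74440000 held 70.7 normalised tags in shControl, 55.5 in shSpt4, 40.8 in shSpt5 and 43.2 in shNelfE, with shControl highest and ratios of 0.786, 0.577 and 0.612. chr11:108827001-108828000 held 79.5 in shControl, 58.1 in shSpt5 and 78.6 in both shSpt4 and shNelfE. There shSpt5 alone was low, at a ratio of 0.731 (0.600 to 0.888), and 59.0% of the reads repeated a position, against a median of 13.0% over solitary peaks.

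**Figure D3:**
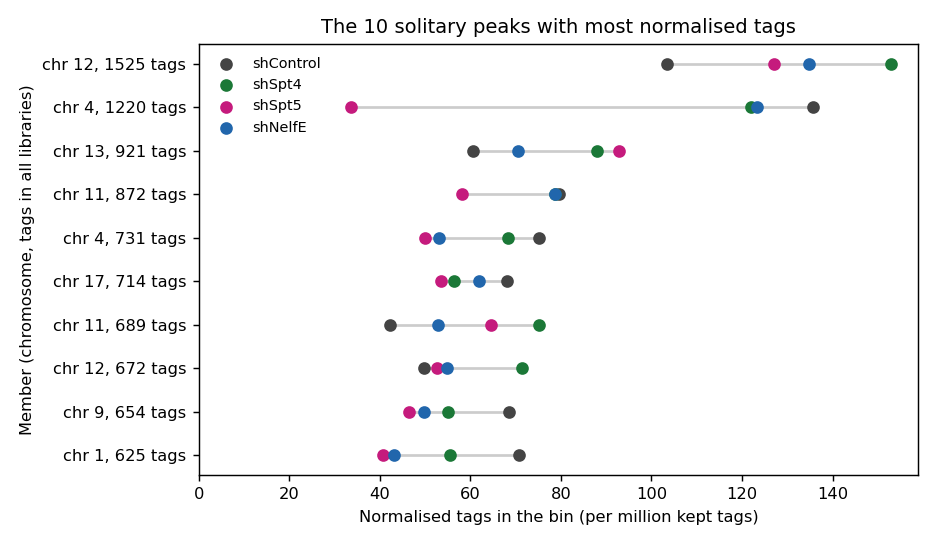
Normalised tags (per 1000000 kept tags) in each library at the 10 solitary peaks with the highest mean over libraries, named by chromosome and summed raw tags. At the chromosome 4 peak of 1220 tags, shSpt5 holds 33.7 and the other libraries 122 to 136. At the chromosome 12 peak of 1525 tags, shControl is the lowest at 103 on this scale.

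The lowest ratios in shSpt5 came from peaks of moderate size. chr4:135259001-135260000 held 70 raw tags in shControl, 35 in shSpt4, 11 in shSpt5 and 41 in shNelfE, and its shSpt5 ratio of 0.160 (0.0763 to 0.304) was the lowest of all solitary peaks with 50 or more tags in the pair. chr16:78459001-78460000 held 44, 22, 7 and 37 tags in the same order and lay 6158 kb from the next strong peak. Its ratio was 0.162 (0.0615 to 0.362) in shSpt5 and 0.907 (0.570 to 1.44) in shNelfE. At chr3:65616001-65617000, with 101, 45, 19 and 57 tags, shSpt5 was at 0.191 (0.111 to 0.315). In these 3 peaks shSpt5 was the lowest library and shNelfE was nearer to shControl. At chr18:67574001-67575000, with 49, 21, 8 and 22 tags in the same order, shSpt5 was at 0.166 (0.0679 to 0.354), but shNelfE was called lower too, at 0.484 (0.279 to 0.816), and lay below shSpt4 at 0.513 (0.292 to 0.872). They were picked as the lowest of 1528, so their sizes are extremes of a list and not estimates for a kind of peak.

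The 5 lowest ratios in shSpt4 were at peaks that were all called lower in shSpt5 too, beside 26.0% of all solitary peaks. They were picked as extremes, and both ratios share the shControl count. Other peaks called lower in shSpt4 were not called lower in shSpt5, such as chr7:27513001-27514000, at 0.384 and 0.787. chr13:67920001-67921000 held 59 tags in shControl, 15 in shSpt4, 17 in shSpt5 and 47 in shNelfE. Both DSIF libraries were low there, at ratios of 0.304 (0.160 to 0.544) and 0.293 (0.160 to 0.510), and shNelfE was at 0.860 (0.573 to 1.28). The direct ratio of shNelfE to shSpt4 was 2.82 (1.55 to 5.44), the highest of the solitary peaks. At chr19:61281001-61282000 the normalised tags were 13.9 in shControl, 5.29 in shSpt4, 4.81 in shSpt5 and 14.6 in shNelfE, again with both DSIF libraries low. At chr10:84532001-84533000, with 100, 30, 24 and 37 tags in that order, all 3 knockdown libraries were low, with ratios of 0.359, 0.244 and 0.399 to shControl.

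The lowest ratio in shNelfE was 0.332 (0.177 to 0.591) at chr7:100033001-100034000, with 52 tags in shControl, 29 in shSpt4, 19 in shSpt5 and 16 in shNelfE. At chr6:120496001-120497000, with 57, 18, 13 and 18 tags in the same order, shNelfE was at 0.341 (0.189 to 0.587) and both DSIF libraries were called lower too. At chr14:19841001-19842000 the normalised tags were 22.1 in shControl, 23.0 in shSpt4, 7.70 in shSpt5 and 8.51 in shNelfE. There shSpt4 stayed near shControl, at 1.04 (0.728 to 1.49), while shSpt5 and shNelfE were called lower than both. These peaks were picked as extremes of the list, and over all solitary peaks the share called lower in shNelfE than in shSpt4 was near the background.

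Few solitary peaks were called higher than in shControl. In shSpt4 they were chr2:44779001-44780000, with 20 tags in shControl, 36 in shSpt4, 17 in shSpt5 and 33 in shNelfE and a ratio of 2.16 (1.21 to 3.93), and chr12:118178001-118179000, with 31, 55, 24 and 32 tags and a ratio of 2.12 (1.34 to 3.41). At both, shSpt5 was called lower than shSpt4, with direct ratios of 0.401 (0.211 to 0.733) and 0.371 (0.219 to 0.609). In shSpt5 they were chr16:13900001-13901000, chr14:18209001-18210000 and chr5:3001001-3002000, with ratios of 2.30 (1.31 to 4.18), 2.21 (1.54 to 3.21) and 2.02 (1.58 to 2.60). The chromosome 5 peak held 99 tags in shControl, 139 in shSpt4, 197 in shSpt5 and 128 in shNelfE, with 747 reads of the second category, and the chromosome 14 peak had 343. Scaled to peak-free windows none of these ratios reached 2.

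The shape of solitary peaks was measured around the summit, the densest point of the pooled tags. The middle 80% of the tags within 1500 bp of it spanned a median of 753 bp, from 415 bp at the 5th percentile to 1351 bp at the 95th. Peaks with one flank spanned 840 bp and peaks with both 1034 bp, and for them the window takes in a part of the signal that defines the class. The 2 strands were even, with a median plus share of 50.0% and 90% of peaks between 43.2% and 57.2%. A second summit 150 to 1000 bp away was found in 826 solitary peaks (54.1%), at a median distance of 330 bp. It was counted when it reached 1 part in 3 of the main summit with a dip between them to 70% or less of the second. Pol II at many mammalian promoters runs in both directions, which gives paired peaks, but whether these summits are such pairs cannot be told without annotation.

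In shSpt5 and shNelfE the ratio to shControl was lowest at the summit, and in shSpt4 it was lowest at 150 to 300 bp from it. Within 150 bp, shControl held 47.7 normalised tags per kb, shSpt4 41.2, shNelfE 35.1 and shSpt5 28.5. The ratio of summed tags there was 0.598 (0.590 to 0.605) in shSpt5, and it was 0.693 (0.679 to 0.708) at 150 to 300 bp and 0.760 (0.743 to 0.777) at 500 to 1000 bp. In shNelfE it went from 0.736 (0.728 to 0.745) through 0.771 (0.755 to 0.786) to 0.854 (0.835 to 0.873). In shSpt4 it was 0.864 (0.854 to 0.874), 0.847 (0.830 to 0.864) and 1.00 (0.979 to 1.02). After each library's own density 5 to 10 bins away was subtracted, the values at 500 to 1000 bp were 0.714, 0.829 and 0.992 in shSpt5, shNelfE and shSpt4. These gradients do not depend on the scale, which moves every distance alike. In peaks with one flank above the limit the shSpt5 ratio likewise went from 0.570 within 150 bp to 0.710 at 500 to 1000 bp, so the rise is not particular to solitary peaks.

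**Figure D4:**
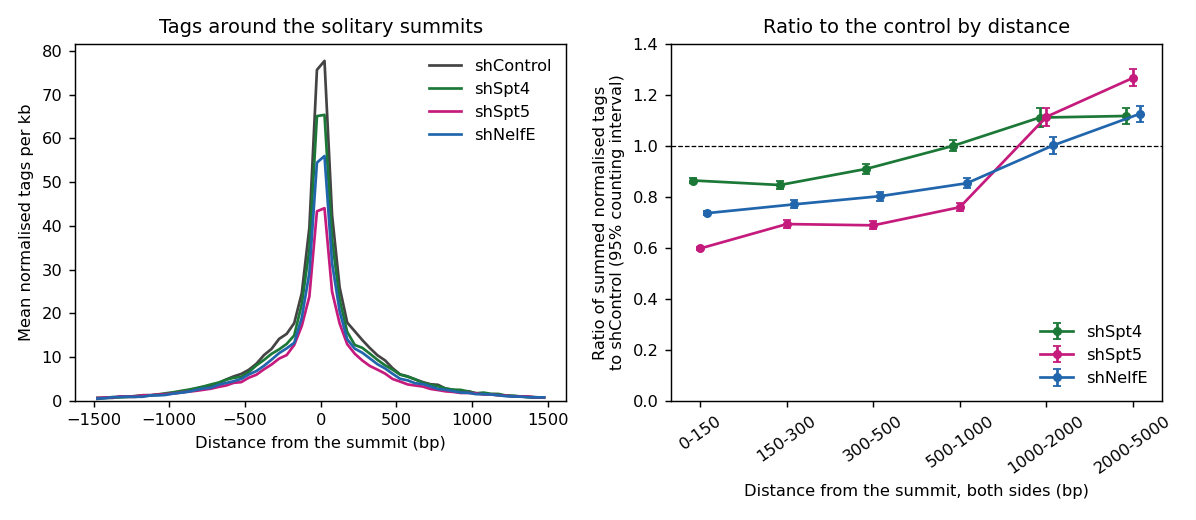
Left, mean normalised tags per kb around the summit of the 1528 solitary peaks in each library. Right, ratio of summed normalised tags to shControl by distance from the summit, with 95% counting intervals. In shSpt5 the ratio goes from 0.598 within 150 bp to 0.760 at 500 to 1000 bp and 1.27 at 2000 to 5000 bp, where the rule limits the tags. Another scale moves each curve up or down as a whole.

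The 2 summits of a double peak had similar ratios. Within 75 bp of the main summit of the 826 double peaks the ratio was 0.568 (0.556 to 0.581) in shSpt5, and within 75 bp of the second it was 0.594 (0.578 to 0.610). In shNelfE the values were 0.727 and 0.722, and in shSpt4 0.854 and 0.822. The 702 solitary peaks without a second summit had a median of 0.652 (0.634 to 0.669) in shSpt5, and those with one 0.607 (0.590 to 0.625). In shNelfE both had 0.742.

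Width went with the ratio in shSpt5. The 509 narrowest solitary peaks had a median of 0.685 in shSpt5 with 85 called lower (16.7%), the 511 in the middle 0.625 with 120 (23.5%), and the 508 widest, from 885 to 2017 bp, 0.567 with 193 (38.0%). In shSpt4 the medians were 0.900, 0.861 and 0.819, and in shNelfE they were 0.742, 0.762 and 0.728, with no such order. Tag number moved them less: over 4 groups of 381 to 384 peaks, from fewest tags to most, the shSpt5 median went 0.651, 0.652, 0.613, 0.617. In shSpt4 it went 0.839, 0.844, 0.863, 0.897, so that the highest solitary peaks were nearest to shControl. Calls of a lower ratio in shSpt4 numbered 26 in the group with fewest tags and 3 in that with most. The standard deviation of the log2 ratio was 0.48 and 0.33 in these groups, so the counts carry the spread as well as the median.

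Peaks with many reads in the second category or many repeated positions sat higher. In the 1176 solitary peaks without a read of the second category, the medians were 0.619 for shSpt5, 0.741 for shNelfE and 0.848 for shSpt4. In the 128 with more than 20 such reads they were 0.710, 0.804 and 0.940. In the 9 peaks where over 40% of reads repeated a position, they were 0.810, 1.07 and 1.13. The peak with most repeats, chosen after its values were seen, was chr14:39187001-39188000. It held 122, 130, 105 and 104 kept tags in shSpt4, shSpt5, shNelfE and shControl, 81.9% of its reads were repeats, and it carried 5800 reads of the second category. How far mapping to repeated sequence enters these peaks was not tested. No background library was used here, so whether such peaks would also stand out without the Pol II antibody was not tested either.

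The centre of a solitary peak also changed against its own flanks, a comparison in which the scale cancels. In shControl the bin was 63.9 times as dense as the flanks, in shSpt4 50.5 times, in shNelfE 42.9 times and in shSpt5 32.1 times. On the log2 scale the difference from shControl was -0.995 (-1.02 to -0.97) for shSpt5, -0.57 (-0.60 to -0.55) for shNelfE and -0.34 (-0.37 to -0.31) for shSpt4. On the total scale both parts moved, since the summed flank tags were 1.26 times those of shControl for shSpt5, 1.12 times for shNelfE and 1.10 times for shSpt4. Against peak-free windows the flanks were densest in shControl, at 1.71 times, beside 1.62 in shSpt5, 1.63 in shNelfE and 1.58 in shSpt4. The direction of the flank part thus rests on the scale. The rule limits the flanks, and which libraries enter it matters. With solitary peaks chosen on the 3 knockdown libraries alone, the differences were -0.25, -0.48 and -0.90 for shSpt4, shNelfE and shSpt5. Peaks with both flanks above the limit gave 0.01, -0.18 and -0.34. Their summed flank tags on the total scale were 0.823, 0.862 and 0.756 times those of shControl in the same order. The classes are thus set against unlike flanks, and their differences do not compare the centres alone.

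Beyond the reach of the rule the surroundings of solitary peaks were sparser than those of the other strong peaks. They were denser than peak-free windows, which held 0.194 normalised tags per kb in shControl. At 11 to 20 bins away shControl held 0.546 normalised tags per kb, against 0.929 around peaks with one flank and 1.63 around peaks with both. The 3 knockdown libraries were close to shControl there, with ratios of 0.991 (0.979 to 1.00) for shSpt5, 0.986 (0.974 to 0.998) for shNelfE and 1.01 (1.00 to 1.03) for shSpt4. At 41 to 50 bins they were 0.899, 0.948 and 0.971. The shSpt5 ratio of 1.26 in the flanks was thus not seen at 11 to 20 bins. In shControl the flanks held 0.331 normalised tags per kb, fewer than those bins. Peak-free windows, sparser still, held 1.33 times the normalised tags of shControl in shSpt5. What sets the ratio at each distance was not tested.

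**Figure D5:**
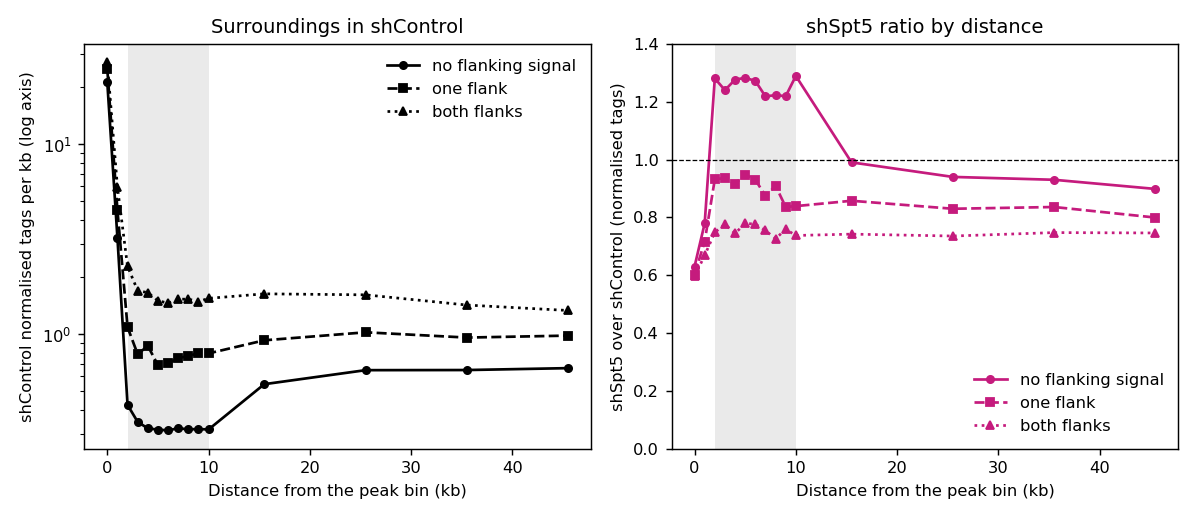
Left, normalised tags per kb in shControl (log axis) by distance from the peak bin for the 3 flank classes. Right, ratio of shSpt5 to shControl on the total scale by distance. The grey band marks the bins that the rule limits. Around solitary peaks the shSpt5 ratio is 0.630 in the bin, 1.22 to 1.29 in the band and 0.991 at 11 to 20 bins.

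Solitary peaks were also farther from other strong peaks. The median distance to the next strong peak was 89.5 kb, against 57.5 kb for peaks with one flank and 38 kb for peaks with both. Another strong peak lay within 50 kb of 513 solitary peaks (33.6%). A bin of 30 or more tags lay 11 to 50 bins away from 859 (56.2%), so solitary refers to the nearest 10 kb and not to a wider gap. The 437 solitary peaks with no strong peak within 200 kb had a median of 0.656 in shSpt5, and the 513 with one within 50 kb 0.619.

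All 19 autosomes carried solitary peaks, from 133 on chromosome 2 down to 40 on chromosome 15. Chromosome 11 was densest, with 0.911 per Mb, and chromosome 8 sparsest, with 0.318. As a share of strong peaks they made up 53.4% on chromosome 13 and 13.1% on chromosome 8. The median log2 ratio in shSpt5 lay between -0.76 on chromosome 19 and -0.57 on chromosome 1. In shSpt4 it lay between -0.47 on chromosome 16 and -0.10 on chromosome 7, and in shNelfE between -0.56 on chromosome 14 and -0.31 on chromosome 7. On the total scale, the order of the 3 knockdown libraries by their medians, shSpt5 lowest and shSpt4 highest, was the same on 18 of the 19 chromosomes and differed on chromosome 16, where shNelfE, at -0.36, was the highest.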

How the data were processed

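Pol II ChIP-seq libraries of 4 hairpin groups were analysed, 1 library each, without a whole cell extract background, which was not used here. Per the file headers, the authors aligned reads with Bowtie to mm8 (-n 2, -l 36, -e 70, -k 2, -m 2) and deposited 1 signed position per read in 2 categories, without normalization. The aligner's version and any removal of duplicates are not given in the sources used here. The first category was used, with 1 tag per position and strand, moved 41 bp toward the fragment centre. These positions are 1-based on mm8. Kept tags per library are in the report.

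Ratios are of tags per 1000000 kept tags, with exact binomial intervals, and log2 ratios used a pseudocount of 0.5 tags. Medians have order-statistic intervals. The centre-to-flank interval is the exact conditional one for an odds ratio. Peak finding and intervals were tested on simulated data. Python 3.11.15, numpy 2.4.6, scipy 1.17.1 and pandas 2.3.3 were used.

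The peaks, classes and named regions were chosen with earlier results of these data known. Named regions were the 10 solitary peaks with the highest mean of normalised tags, the 5 lowest and 5 highest called ratios to shControl per knockdown, the 3 lowest and 3 highest between knockdowns, both among peaks with 50 or more tags in the pair, and the 3 bins on each side of each threshold. A subset is printed. Regions on other grounds are marked where they stand. Alternatives in scaling, counting and choice of peaks are in the closing section.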

Additional observations from a re-analysis of the deposited data

Results flagged for a closer look

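Signal outside the counted reads was present in solitary peaks. The second category of deposited reads, which entered no count above, placed 19295 reads in solitary peak bins, 5136 in shControl, 5243 in shSpt5, 4474 in shNelfE and 4442 in shSpt4. They fell in 352 of the 1528 peaks.

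Chromosome X, which the rule leaves out, held 69 bins that met the same limits among 102 strong bins. Their median ratios to shControl were 0.651 (0.605 to 0.699) for shSpt5, 0.796 (0.738 to 0.851) for shNelfE and 0.907 (0.831 to 0.949) for shSpt4 on the total scale.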

How the results depend on the processing

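All medians are log2 ratios to shControl and all triplets are in the order shSpt4, shSpt5, shNelfE. Unmoved tags, a grid 500 bp later and subtraction of the flank density kept each median and count of lower calls near its value. Scaling to peak-free windows gave medians of -0.47, -1.08 and -0.66, with 148, 859 and 237 peaks lower. Scaling to the median of strong peaks, solitary peaks among them, turned the medians to 0.048, 0.082 and 0.0052, with 15, 61 and 5 lower. Values near the set median follow from that choice. Calls over all strong peaks were not counted on either of these scales. With every read kept, the medians were -0.26 in shSpt4 and -0.73 in shSpt5, and the centre-over-flank differences -0.41, -1.08 and -0.63. A flank limit of 40 left 476 peaks, with medians of -0.19 in shSpt4 and -0.61 in shSpt5, 12, 111 and 14 lower and differences of -0.46, -1.10 and -0.65. A minimum of 200 tags left 600 peaks, with a median of -0.18 in shSpt4 and 5, 124 and 11 lower. As shares, these are 2.52%, 23.3% and 2.94% at the flank limit and 0.833%, 20.7% and 1.83% at the minimum, beside 3.27%, 26.0% and 5.04% of all solitary peaks. Counting 3 kb gave medians of -0.17, -0.60 and -0.37, 29 lower in shSpt4 and 30 in shNelfE, and differences of -0.30, -0.92 and -0.53. Choosing peaks without shControl gave 1275, of which 1210 were shared, with medians of -0.19 in shSpt4 and -0.62 in shSpt5. Of those 1275 peaks, 26, 292 and 49 were lower, and the differences were -0.25, -0.90 and -0.48. Calls over all strong peaks were not counted under any alternative here, so its counts and shares have no background beside them. Leaving out peaks with second-category reads, an alternative chosen after seeing the data, gave a difference of -1.02 in shSpt5. The cause of these changes was not tested. Depth limits single peaks, and no paired analysis was possible because each group has 1 library.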
